A study of Mus musculus with 15 samples.

Results

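The genes described here are 10 components of Toll-like receptor signalling and of its feedback onto NF-kB: Tlr2, Tlr4, Cd14, Ly96, Myd88, Irak3, Nfkbia, Nfkb1, Tnfaip3 and Il1rn. They were chosen by name, and a probe set was used where the array's platform annotation paired it with exactly 1 of these symbols. This gave 14 probe sets for 8 genes, out of 20380 probe sets for 12393 genes in the whole data set. Nfkbia had 4 probe sets, Il1rn 3, Tlr4 2, and the others 1 each. In the annotation used here no probe set was paired with Irak3 or Nfkb1 alone, and these 2 genes are not analysed here.

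Toll-like receptors recognise microbial molecules at the cell surface or in endosomes. TLR2 responds to bacterial lipoproteins, and TLR4 responds to lipopolysaccharide that CD14 hands to the complex of TLR4 and LY96 (also called MD-2). Both receptors signal through the adaptor MYD88 to the IkB kinases, which mark the inhibitor IkB-alpha, the product of Nfkbia, for degradation and so release NF-kB into the nucleus. NF-kB then drives transcription of Nfkbia itself and of Tnfaip3, which encodes the ubiquitin-editing enzyme A20, so that both proteins switch the pathway off again. Il1rn encodes the interleukin-1 receptor antagonist. In the heart these genes are expressed by resident and infiltrating leukocytes as well as by endothelial cells, fibroblasts and cardiomyocytes.

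Whole hearts were profiled 48 h after surgery, 1 array per sample, in 5 groups of 3 arrays. Wild-type C57/BL6 mice had either a sham operation, in which the caecum was exposed and put back, or caecal ligation and puncture (CLP), which seeds the abdomen with gut bacteria; the labels split the septic wild-type hearts into Min Dep and Max Dep without defining these terms. Mice of the congenic B6.129P2-Nos2tm1Lau/J strain, which lack the inducible nitric oxide synthase, had sham surgery or CLP. All mice, sham groups included, received isoflurane, buprenorphine and saline, and were catheterised under ketamine and xylazine before the hearts were emptied of blood and frozen. Age and sex are not given in the labels, and nothing beyond the separate codes says that arrays of a group came from independent operations, so p-values measure the spread between these arrays.

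Wild-type values are standardised units: each probe set was scaled to the same spread over the 9 wild-type arrays, so a value says where an array stands relative to the others and gives neither level nor fold. Knockout values behave as log differences of unstated base around a centre for each probe set. Levels therefore cannot be ranked between genes or compared between genotypes, and the 11 measured cardiomyocyte markers cannot show presence of heart muscle RNA, only differences between arrays. In 2 arrays sex-linked genes stood apart. Wild-type sham replicate 1 had Xist at 2.64 and Eif2s3y at -2.48, against -0.17 or below and -0.68 or above in the other wild-type arrays. Knockout sham replicate 2 had Xist at -6.36 and Eif2s3y at 5.76, against at most 0.10 for Eif2s3y in the other knockout arrays. Knockout CLP replicate 1 was not used in the tests because its values lay between those of the other 2 CLP arrays in 76.0% of probe sets, against 11.5% and 12.5% for those 2. The SD of its values over probe sets was 0.68, against 0.98 to 1.09 in the other knockout arrays. It may therefore not be an independent array. The reason was not tested, and its values are still given. Its Xist value, -3.23, also lay apart from the other CLP arrays.

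The RefSeq promoter table has 10 windows for 6 of the members and no entry for Tlr4, Cd14, Ly96 and Nfkb1. Of the 10 windows, 3 hold at least 1 match to the NF-kB consensus, the DNA element of this pathway. They belong to 3 genes and are shown because NF-kB feedback is known to act through such elements. Each window covers 250 bases before to 50 bases after a transcription start in GRCm38.p6, printed 5′ to 3′ on the gene's strand with the matches in capitals. The consensus of 10 letters was searched on both strands, and overlapping matches were merged in the capitals. Across 32851 windows of this length, 4.51% held a match.
Nfkbia (chr12:55492598-55492897, minus strand): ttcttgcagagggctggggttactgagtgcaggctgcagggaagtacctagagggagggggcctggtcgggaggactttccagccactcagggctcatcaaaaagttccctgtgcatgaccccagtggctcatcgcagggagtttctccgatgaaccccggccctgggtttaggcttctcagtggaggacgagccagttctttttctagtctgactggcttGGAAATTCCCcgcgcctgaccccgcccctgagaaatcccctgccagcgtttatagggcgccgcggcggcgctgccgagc
Tnfaip3 (chr10:19015361-19015660, minus strand): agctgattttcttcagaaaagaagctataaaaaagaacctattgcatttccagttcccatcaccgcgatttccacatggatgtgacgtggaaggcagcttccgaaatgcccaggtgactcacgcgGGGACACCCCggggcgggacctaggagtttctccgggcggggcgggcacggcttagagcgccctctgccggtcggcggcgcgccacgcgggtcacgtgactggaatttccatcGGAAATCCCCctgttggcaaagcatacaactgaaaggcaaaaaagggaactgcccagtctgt
Tlr2 (chr3:83841559-83841858, minus strand): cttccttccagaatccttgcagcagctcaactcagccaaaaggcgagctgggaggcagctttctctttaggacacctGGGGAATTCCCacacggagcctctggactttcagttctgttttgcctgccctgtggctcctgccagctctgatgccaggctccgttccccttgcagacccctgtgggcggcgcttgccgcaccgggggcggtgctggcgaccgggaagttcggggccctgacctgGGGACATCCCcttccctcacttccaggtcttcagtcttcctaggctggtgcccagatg
The Nfkbia window held 1 match, beginning at position -29 relative to the transcription start. The Tnfaip3 window held 2, at -125 and -12. The Tlr2 window held 3, at -173, -172 and -8, of which the first pair overlap. The windows of Myd88, Irak3 and Il1rn, and another Tnfaip3 window, held none. These are matches of letters and not measured binding sites.

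None of the 8 measured genes passed the test in any of 5 comparisons (limma, Benjamini-Hochberg over 12393 genes, threshold 0.05). Adjusted p-values of the members ran from 0.168 to 0.996. The share of all genes that passed was 0.718% for wild-type CLP against sham, 0.452% for Max Dep against sham, 0.0565% for Min Dep against sham, and 0% both for Max Dep against Min Dep and for knockout CLP against sham. At an unadjusted p under 0.05 the members counted 1, 1, 2, 1 and 1 of 8 in these comparisons, beside 18.6%, 16.7%, 16.4%, 9.81% and 11.9% of all genes. These shares of the members are near the background. The gene that stood out by its values was Nfkbia, which was higher in every Max Dep than in every Min Dep heart on each of its 4 probe sets.

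**Figure D1:**
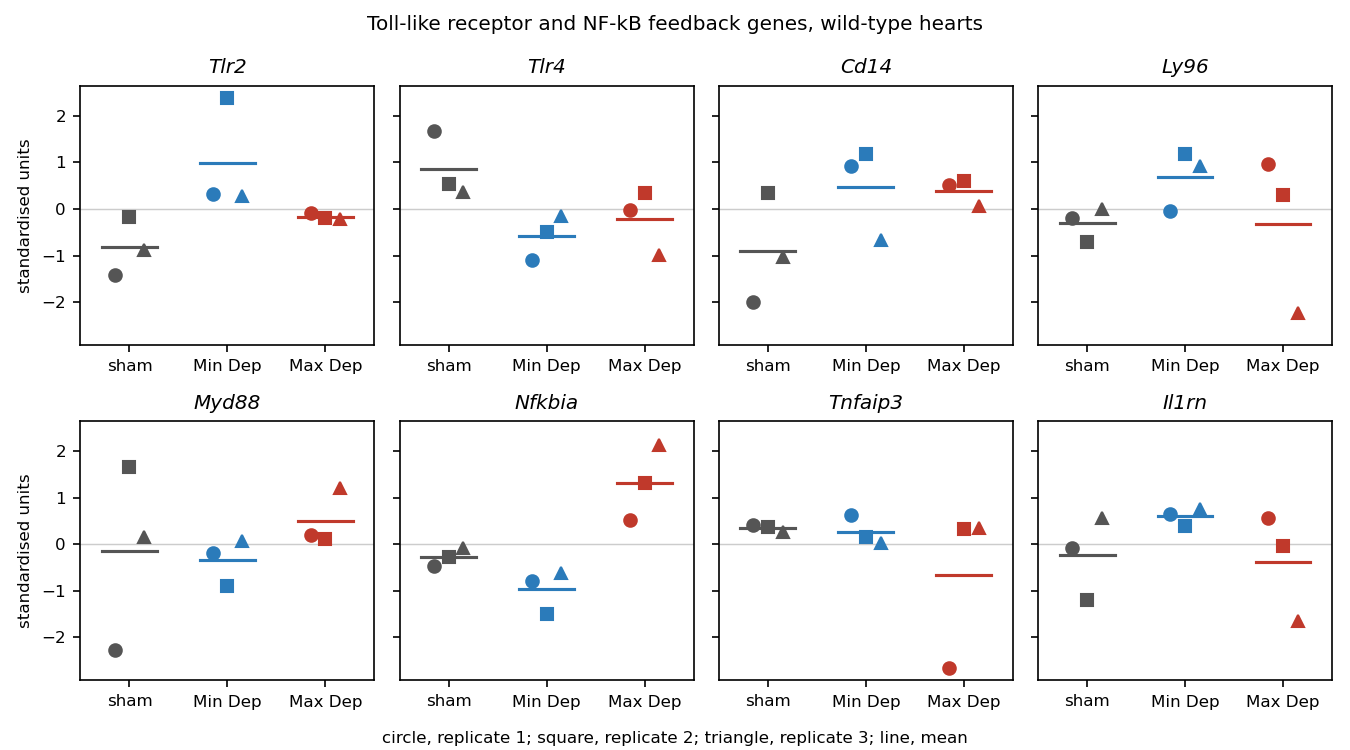
Values of the 8 measured genes on the 9 wild-type arrays, in standardised units on the vertical axis, by group on the horizontal axis; symbols mark replicates, lines group means, and probe sets of a gene were averaged. Nfkbia is the gene whose 3 groups do not overlap, with Max Dep from 0.52 to 2.13, sham from -0.47 to -0.082 and Min Dep from -1.49 to -0.61.

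Among the receptors, Tlr2 had values of -1.42, -0.17 and -0.87 in wild-type sham hearts, 0.32, 2.39 and 0.28 in Min Dep hearts and -0.083, -0.18 and -0.22 in Max Dep hearts. All Min Dep arrays lay above all sham arrays, with replicate 2 far above the other 2, while Max Dep arrays lay within a narrow band that overlapped sham. Tlr2 was 1.82 ± 0.64 units higher in Min Dep than in sham hearts (SE; unadjusted p = 0.0298, adjusted p = 0.248), 0.66 ± 0.64 higher in Max Dep than in sham hearts (adjusted p = 0.655) and 1.24 ± 0.56 higher over both septic groups (adjusted p = 0.306). Max Dep was 1.16 ± 0.64 units below Min Dep, with an interval of -2.73 to 0.41 (95% confidence; adjusted p = 0.582), although the 3 arrays of each group did not overlap. Separate groups occurred for 10.9% of all genes in the direction Min Dep above sham and for 7.43% in the direction Max Dep below Min Dep, Tlr2 being the 1 member in each. Without sham replicate 1, the array with the lowest Tlr2 value, the difference over both septic groups was 0.94 (adjusted p = 0.572). Without Min Dep replicate 2, the highest array, Min Dep minus sham was 1.12 (adjusted p = 0.229) and Max Dep minus Min Dep -0.47 (adjusted p = 0.733).

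Tlr4, the lipopolysaccharide receptor, had differences of the opposite sign. Averaged over its 2 probe sets it stood at 1.69, 0.53 and 0.36 in sham, -1.10, -0.49 and -0.15 in Min Dep and -0.031, 0.35 and -0.98 in Max Dep hearts. All 6 septic arrays were below all 3 sham arrays, by a margin of 0.015 units between Max Dep replicate 2 and sham replicate 3. The difference was -1.26 ± 0.45 units (SE), with an interval of -2.36 to -0.16, an unadjusted p of 0.0314 and an adjusted p of 0.219. Groups were separate in this direction for 6.11% of all genes, and Tlr4 was the 1 member among them; for Max Dep below sham it was 1 member beside 12.7% of genes. Both probe sets had the same sign, with differences of -1.42 ± 0.52 and -1.10 ± 0.73, but their values were only loosely related (r = 0.30 over 9 arrays, which share the same RNA). The first was low in Min Dep (-1.10, -1.21 and -0.62) and overlapped sham in Max Dep (-0.50, 0.31 and 0.33). In the second, 1 Min Dep array (-1.10) and 1 Max Dep array (-2.30) were low and the other 4 septic arrays lay between 0.22 and 0.44, beside sham values of 1.09, 0.80 and 0.39. Without sham replicate 1 the difference of the gene was -0.85 (adjusted p = 0.442).

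The co-receptor Cd14 was at -1.99, 0.34 and -1.04 in sham, 0.91, 1.18 and -0.66 in Min Dep and 0.52, 0.60 and 0.056 in Max Dep hearts. Sham replicate 2 lay within the septic range, and Min Dep replicate 3 within the sham range. The septic groups were 1.33 ± 0.64 units higher than sham (adjusted p = 0.337), and 0.78 units higher without sham replicate 1 (adjusted p = 0.640). Min Dep alone exceeded sham by 1.37 ± 0.74 and Max Dep alone by 1.29 ± 0.74, and the interval of Max Dep minus Min Dep, -1.89 to 1.72, is wide. Ly96, the partner of TLR4 on the cell surface, was at -0.20, -0.71 and 0.0036 in sham, -0.049, 1.17 and 0.93 in Min Dep and 0.97, 0.31 and -2.24 in Max Dep hearts. Its groups overlapped, and Max Dep replicate 3 was the lowest of the 9 arrays (Max Dep minus sham -0.015 ± 0.87, and 0.95 without that array). Within the lipopolysaccharide receptor complex, the signalling chain Tlr4 thus had lower mean values and the co-receptor Cd14 higher ones in septic hearts, and neither passed the test.

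Myd88, the shared adaptor, ranged more among sham hearts (-2.26, 1.67 and 0.15) than between groups. Its values were -0.19, -0.89 and 0.075 in Min Dep and 0.20, 0.12 and 1.20 in Max Dep hearts. Max Dep arrays were all above Min Dep arrays, by 0.84 ± 1.0 units in the mean (adjusted p = 0.783), and both groups lay within the sham range. Without Max Dep replicate 3 that difference was 0.49. The difference of septic from sham hearts was 0.24 ± 0.87 and became -0.82 without sham replicate 1. That array held the lowest sham value of Tlr2, Cd14 and Myd88 and the highest of Tlr4. Sham replicate 2 weighed on these differences too. Without it, septic minus sham was 1.56 for Tlr2, 1.94 for Cd14, 1.14 for Myd88 and -1.43 for Tlr4.

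Nfkbia, the inhibitor that NF-kB induces, gave the clearest pattern among the members. Averaged over 4 probe sets its values were -0.47, -0.27 and -0.082 in sham, -0.79, -1.49 and -0.61 in Min Dep and 0.52, 1.32 and 2.13 in Max Dep hearts. Every Max Dep heart was above every sham heart, and every Min Dep heart was below every sham heart. Max Dep exceeded Min Dep by 2.29 ± 0.45 units (SE), with an interval of 1.19 to 3.39, an unadjusted p of 0.00224 and an adjusted p of 0.313. Against sham, Max Dep was 1.60 ± 0.45 units higher (unadjusted p = 0.0121, adjusted p = 0.168) and Min Dep -0.69 ± 0.45 units apart (adjusted p = 0.498), or -0.43 without Min Dep replicate 2. Over both septic groups together the opposite signs left 0.45 ± 0.39 (adjusted p = 0.607). Separate groups in the direction Max Dep above Min Dep occurred for 7.89% of all genes, Nfkbia and Myd88 being the 2 members. Max Dep above sham occurred for 13.8%, with Nfkbia as the 1 member, and Min Dep below sham for 12.4%, with Nfkbia and Tlr4. The whole order, with Max Dep above and Min Dep below all sham arrays, was counted after it had been seen and occurred in 14 genes, 0.113% of those measured, Nfkbia included.

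The 4 Nfkbia probe sets measure the same RNA on the same arrays and are not independent hearts, but they can show whether 1 of them carried the pattern. On each of the 4, all Max Dep arrays were above all Min Dep arrays, with differences of 2.34 ± 0.52, 2.09 ± 0.63, 2.25 ± 0.52 and 2.48 ± 0.39 units and adjusted p-values from 0.247 to 0.434 when every probe set was tested. The same separation occurred in 8.97% of all probe sets. Max Dep was above every sham array on 3 of the 4, beside 15.6% of all probe sets; on the other, Max Dep replicate 1 (0.20) lay below sham replicate 1 (0.28). Min Dep was below every sham array on 2 of the 4, beside 14.1% of all probe sets, so the lower side of the order was less uniform than the upper. Correlations between the probe sets over the 9 arrays ran from 0.82 to 0.96. Leaving out any 1 array kept the Max Dep minus Min Dep difference of the gene between 1.88 and 2.69.

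**Figure D2:**
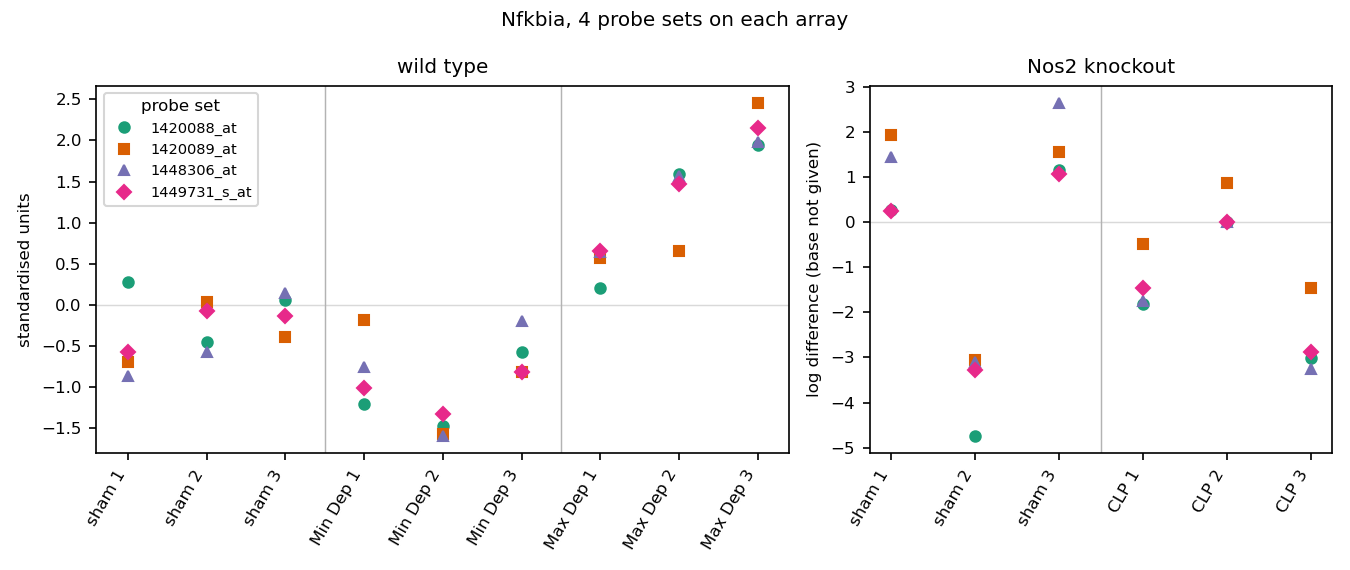
Each of the 4 Nfkbia probe sets (colours and symbols) on each array (horizontal axis), in standardised units for wild type at left and in log differences for knockout at right. The probe sets move together, with all 4 above 0 in the 3 wild-type Max Dep arrays and all 4 at -3.05 or below in knockout sham replicate 2.

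Other array properties moved with this pattern in part. The 5' minus 3' difference of the Gapdh and Actb control probe sets was taken as a rough guide to RNA integrity. In wild type it is a difference of standardised values and not a measured ratio of 5' to 3' signal. Its values were 0.55, 0.39 and 1.76 in sham, 0.068, -0.083 and -0.56 in Min Dep and -0.81, 0.53 and -1.85 in Max Dep hearts. The lowest of these belonged to Max Dep replicate 3, which had the highest Nfkbia and the lowest Ly96 and Il1rn values. With this difference as a covariate, Nfkbia in Max Dep minus Min Dep was 2.19 ± 0.50 (adjusted p = 0.498) and in Max Dep minus sham 1.30 ± 0.66 (adjusted p = 0.565). Macrophage and monocyte markers had a median difference of 1.69 over 14 genes for septic against sham hearts, beside 0.021 over all genes, and 2 of them, Fcer1g and Tyrobp, passed. Their mean per array ran from -1.31 to -0.51 in sham, -0.18 to 0.41 in Min Dep and 0.21 to 1.36 in Max Dep hearts. Neutrophil markers ran from -0.94 to -0.55, -0.080 to 0.68 and 0.18 to 0.87 over 12 genes, of which S100a8 and S100a9 passed. These 4 calls were lost with eBayes moderation and without sham replicate 1, sham replicate 2, Min Dep replicate 1 or Max Dep replicate 1, settings in which 0 genes passed in all. In other settings 1 gene passed with the 5' minus 3' covariate, 1 without Min Dep replicate 3 and 2 without sham replicate 3. The 4 calls cannot all have been kept there. Against sham, the means of Tlr2 and Cd14, which myeloid cells express, and of these markers were all higher in septic hearts. Between the septic groups the Tlr2 mean was lower and the marker means were higher in Max Dep, while Cd14 differed by -0.084 ± 0.74. The ranges per array of both marker sets overlapped between these groups, and 0 of the marker genes passed (limma). All 14 macrophage and monocyte markers and 8 of 12 neutrophil markers were higher in Max Dep, and 4 neutrophil markers were lower. That Tlr2 difference did not pass (limma, adjusted p = 0.582) and was -0.47 without Min Dep replicate 2. The part of the markers in these differences was not tested. In whole tissue, more cells of a type and more RNA per cell cannot be told apart.

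Tnfaip3, the other feedback inhibitor with NF-kB matches in its window above, did not follow Nfkbia. It lay at 0.41, 0.38 and 0.26 in sham, 0.62, 0.16 and 0.023 in Min Dep and -2.66, 0.32 and 0.35 in Max Dep hearts. A single array, Max Dep replicate 1, stood far below the other 8, which spanned 0.023 to 0.62. The Max Dep minus sham difference was -1.01 ± 0.83 (adjusted p = 0.591) with that array and -0.014 without it. Il1rn was at -0.076, -1.19 and 0.57 in sham, 0.64, 0.40 and 0.75 in Min Dep and 0.56, -0.029 and -1.64 in Max Dep hearts, averaged over 3 probe sets. Its Min Dep arrays lay between 0.40 and 0.75, inside or just above the sham range, and Max Dep arrays were spread widely (Max Dep minus Min Dep -0.97 ± 0.69, adjusted p = 0.650). Without Max Dep replicate 3 this difference was -0.33. By probe set, 2 of the 3 placed every Max Dep array below every Min Dep array, as 6.28% of all probe sets did, with differences of -1.39 ± 0.64 and -1.58 ± 0.57 and unadjusted p-values of 0.0741 and 0.0322 (adjusted p = 0.539 and 0.484 with every probe set tested), and the third gave 0.069 ± 1.0. These 2 followed each other closely (r = 0.94 over 9 arrays) and the third followed them less (r = 0.46 and 0.53). For Min Dep minus sham the same 3 probe sets gave 0.97 ± 0.64, 1.36 ± 0.57 and 0.17 ± 1.0 (adjusted p = 0.494, 0.301 and 0.950 with every probe set tested). On the second, Min Dep arrays were at 0.97, 1.21 and 0.74 and sham arrays at -0.28, -1.01 and 0.13. Separate groups in this direction occurred for 10.9% of all genes, and the share over probe sets is not given here.

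**Figure D3:**
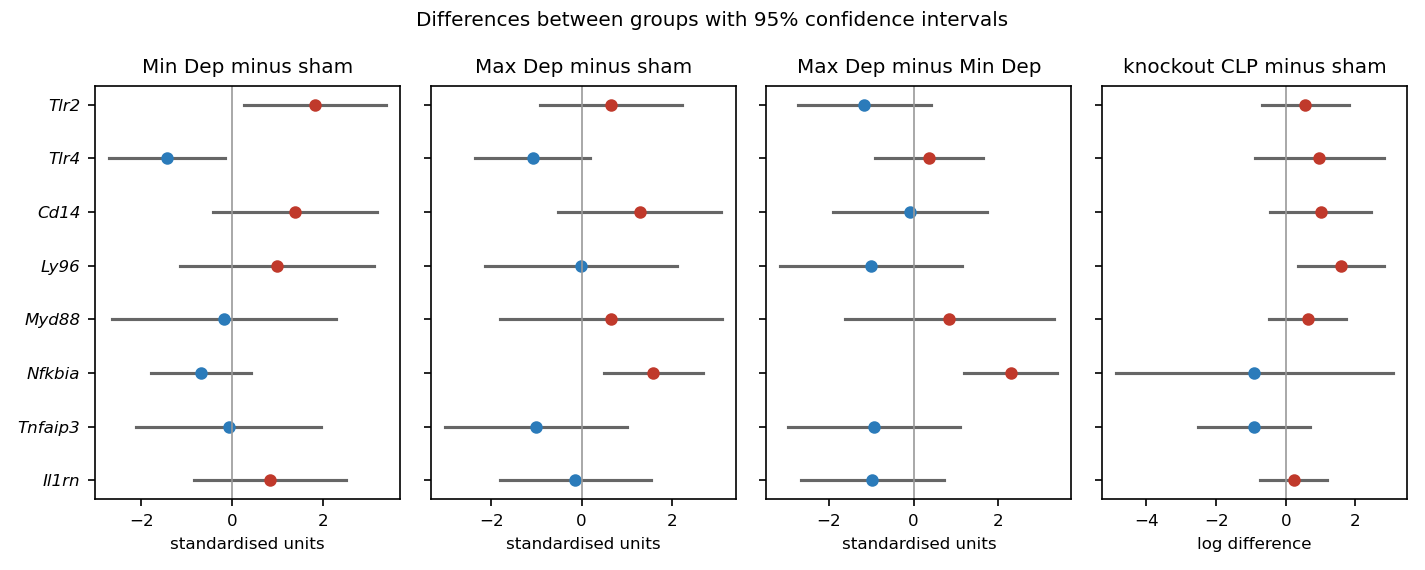
Differences between groups for the 8 measured genes with their 95% confidence intervals, in standardised units for the 3 wild-type panels and in log differences for the knockout panel; red points are above 0 and blue points below. The Nfkbia interval lies above 0 for Max Dep minus sham (0.49 to 2.70) and Max Dep minus Min Dep (1.19 to 3.39), before adjustment for the number of genes tested.

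In Nos2 knockout hearts the comparison used 3 sham and 2 CLP arrays. Ly96 had the largest difference relative to its error. Its values were -0.38, 0 and -1.28 in sham and 1.12 and 0.96 in CLP hearts, with 0.64 in the CLP array not used, so that all CLP arrays lay above all sham arrays. The difference was 1.59 ± 0.52 log units (SE; interval 0.35 to 2.84, unadjusted p = 0.0198, adjusted p = 0.292), and 1.46 ± 0.40 with all 6 arrays (adjusted p = 0.119). The array added there, CLP replicate 1, may not be independent of the other 2, so the smaller error may understate the spread. Cd14 was at 0.086, -0.051 and -1.05 in sham and 1.33 and 0 in CLP hearts (1.0 ± 0.61, adjusted p = 0.609). That difference was 0.34 without CLP replicate 2, 1.66 without CLP replicate 3 and 0.65 without sham replicate 3. Tlr2 was at -1.18, 0.15 and -0.52 in sham and 0 and 0.10 in CLP hearts (0.57 ± 0.52, adjusted p = 0.765), a difference of 0.23 without sham replicate 1 and 0.90 without sham replicate 2. Groups did not overlap for 3 of the 8 members, Ly96, Myd88 and Il1rn, all higher after CLP, beside 15% of all genes in that direction. For Myd88 the difference was 0.63 ± 0.46 and for Il1rn 0.23 ± 0.40, with adjusted p-values of 0.681 and 0.888. The gaps were narrow for both. Myd88 was at -0.65, 0 and -0.88 in sham and 0.24 and 0.0083 in CLP hearts. Il1rn was at -0.32, -0.21 and -0.11 in sham and 0.12 and -0.087 in CLP hearts. On each of the 3 Il1rn probe sets taken alone the groups overlapped. Myeloid markers were higher in the same CLP arrays. The macrophage and monocyte markers averaged 1.72 and 2.23 in the CLP arrays tested and -0.69 to 0.23 per sham array. The neutrophil markers averaged 1.32 and 2.48 there and -0.46 to -0.10 per sham array. In the CLP array not used the averages were 1.32 and 1.18. None of these genes passed limma's adjusted threshold. At an unadjusted p under 0.05, 10 of 14 and 6 of 12 were higher, beside 11.9% of all genes in either direction. Their part in the Ly96 difference was not tested.

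Tlr4 in knockout hearts was at -0.52, 0.54 and -0.78 in sham and 1.81 and -0.38 in CLP hearts, a difference of 0.96 ± 0.77 that was -0.13 without CLP replicate 2 and 2.06 without CLP replicate 3. Its sign was opposite to wild type, but the genotypes were measured in different units on different array models and no test between them was made. Tnfaip3 was at -0.0031, 0 and 1.56 in sham and -0.96 and 0.19 in CLP hearts (-0.91 ± 0.67, adjusted p = 0.692). Its difference was -0.33 without CLP replicate 2, -1.49 without CLP replicate 3 and -0.39 without sham replicate 3.

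Nfkbia varied more within the knockout groups than between them. Its values were 0.98, -3.54 and 1.60 in sham and 0.21 and -2.65 in CLP hearts, with -1.37 in the CLP array not used. The SD among the 3 sham arrays was 2.81 log units, larger than that of 99.1% of genes, whose median was 0.559. CLP minus sham was -0.90 ± 1.7 (adjusted p = 0.897). The low sham value belonged to replicate 2, the array whose sex-linked genes stood apart, and without it the difference was -2.51 ± 1.0 (adjusted p = 0.461). It was 0.54 without CLP replicate 3, -2.33 without CLP replicate 2, -0.25 without sham replicate 1 and 0.065 without sham replicate 3, so the sign in knockout hearts depended on single arrays. All 4 probe sets shared the low value in sham replicate 2, from -4.74 to -3.05. The 5' minus 3' control difference of that array was 0.21, inside the range of the knockout arrays (-2.06 to 0.98).

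**Figure D4:**
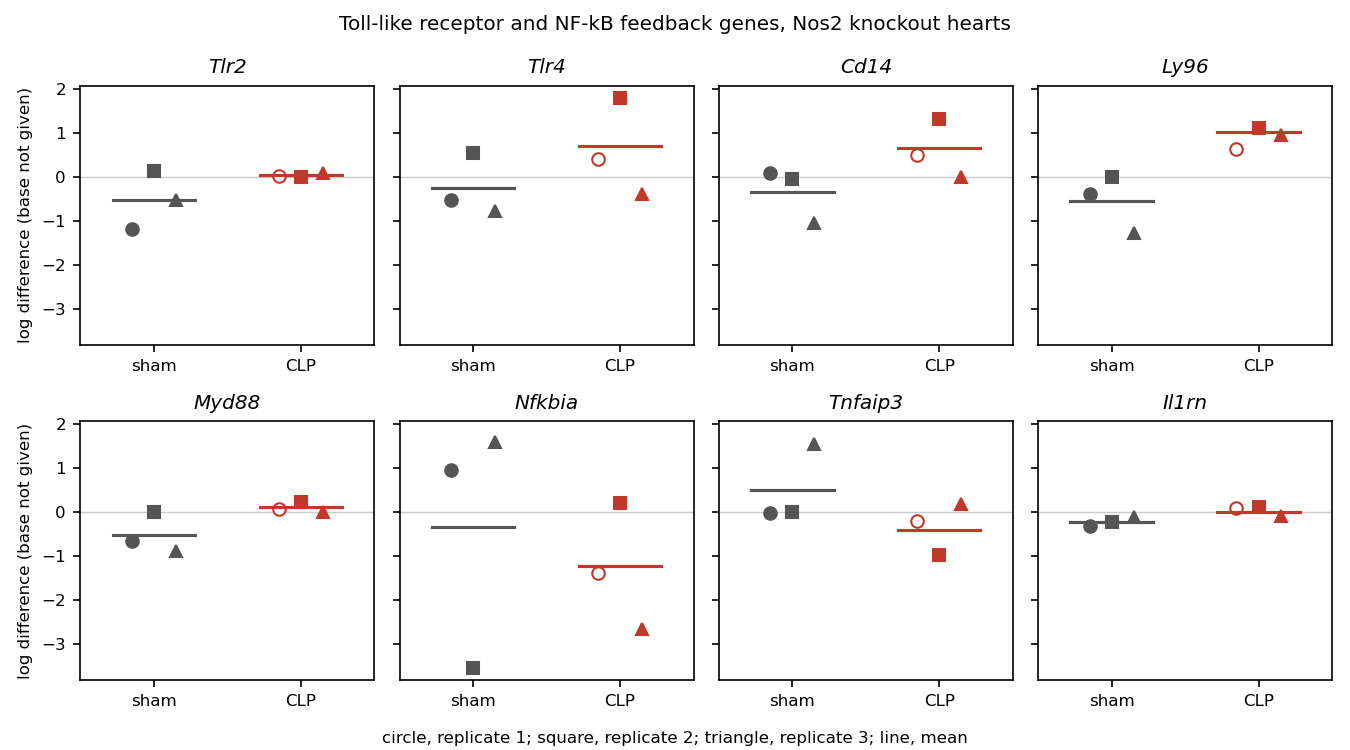
Values of the 8 measured genes in knockout hearts, as log differences on the vertical axis, by group; lines are means of the arrays tested, and the open circle is CLP replicate 1, which was not tested. The sham values of Nfkbia span -3.54 to 1.60, wider than those of any other member.

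The wider pathway was read from 5 lists of 78 genes that hold none of the 10 members, of which 68 were measured. Across the lists 1 gene passed in 1 comparison. Sod2, the mitochondrial superoxide dismutase and an NF-kB target, fell in septic wild-type hearts, from 1.12, 1.23 and 1.56 in sham to between -1.22 and -0.26 in the 6 septic hearts (-1.95 ± 0.22, adjusted p = 0.0307). This call too was lost in the settings in which 0 genes passed, namely eBayes moderation and leaving out sham replicate 1, sham replicate 2, Min Dep replicate 1 or Max Dep replicate 1. Only 1 gene passed with the 5' minus 3' covariate, 1 without Min Dep replicate 3 and 2 without sham replicate 3. Whether Sod2 was among those is not given here. Other receptors and co-receptors had 14 of 16 positive differences for wild-type CLP against sham, with a median of 0.74 beside 0.021 over all genes. With limma 0 of these passed, and 5 were higher and 1 lower at an unadjusted p under 0.05, beside 18.6% of all genes. Among these receptors, Ly86, which pairs with the TLR4 homologue CD180, differed by 1.75 ± 0.47 (adjusted p = 0.133) and Tlr1, the partner of TLR2, by 1.37 ± 0.55 (adjusted p = 0.261). Cd180 itself differed by 0.88 ± 0.20 (limma, adjusted p = 0.0962). The gene lower at an unadjusted p under 0.05 was Lbp (-1.48 ± 0.59, adjusted p = 0.260). In knockout hearts Ly86 and Tlr1 differed by 2.66 ± 0.45 and 3.03 ± 0.54 log units (adjusted p = 0.105 and 0.106). There the list had 11 of 16 positive differences (median 0.25, beside 0.029 over all genes), and Cd36 was at -2.03 ± 0.74 (adjusted p = 0.354). These genes, and those named in the next paragraph, were chosen after their values were seen. For wild-type CLP against sham, adaptors and kinases had 7 of 11 positive differences (median 0.35). Inhibitors and feedback genes had 7 of 15 (median -0.18) and inflammatory targets 14 of 22 (median 0.17).

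The other 4 NF-kB subunit genes, Rela, Relb, Rel and Nfkb2, had positive mean differences of Max Dep from Min Dep, with a median of 1.11 beside -0.084 over all genes, and 0 of 4 passed. Arrays of the septic groups overlapped for Relb (1.47 ± 0.84), Nfkb2 (0.75 ± 0.64) and Rel (0.15 ± 0.86). Rela, which encodes the p65 subunit that IkB-alpha holds in the cytoplasm, differed by 1.95 ± 0.65 (unadjusted p = 0.0241, adjusted p = 0.448), the same direction as Nfkbia. Cd180 went the opposite way, at -1.84 ± 0.23 (unadjusted p = 0.000192, adjusted p = 0.185). Against sham, Cd180 was at -0.039 ± 0.23 in Max Dep (limma, adjusted p = 0.953) and 1.80 ± 0.23 in Min Dep hearts (adjusted p = 0.0666). Socs3, a feedback inhibitor of cytokine receptors, had positive differences from sham in Max Dep (1.91 ± 0.54, adjusted p = 0.168), Min Dep (1.33 ± 0.54, adjusted p = 0.299) and knockout CLP hearts (3.02 ± 0.81 log units, adjusted p = 0.210). In knockout hearts 16 of 22 inflammatory targets had positive differences (median 0.64, beside 0.029 over all genes), Il1b among them at 2.28 ± 0.65 (adjusted p = 0.235).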

How the data were processed

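Heart RNA of 15 samples was hybridised to expression arrays, per the labels. The authors deposited 1 table of 22690 probe sets per genotype, each holding a score whose software and steps were not given in the sources used here. When a linear step per array was undone, each wild-type probe set had mean 0 and SD 1. After removal of 64 control probe sets, the 20380 paired with 1 gene were averaged to 12393 genes; 691 were paired with several genes and 1555 with none. Levels and detection calls were not used here, so dim probe sets were not filtered, and precision is limited by how few arrays there are.

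Titles gave the groups; replicate numbers are names. The limma package (version 3.58.1, R version 4.3.3) fitted the 9 wild-type arrays together without moderation (6 residual degrees of freedom, because standardised probe sets carry no scale to share) and 5 knockout arrays with eBayes. Benjamini-Hochberg adjustment ran over all genes, with a threshold of 0.05. Scripts were tested on simulated data. Alternatives were every probe set, moderation in wild type, undoing the array step, a covariate from the 5' and 3' controls, other sets of arrays, and leaving out each array. Members, lists, tests and alternatives were chosen with earlier results of these data known. Named genes were the members, list genes past the threshold, the 3 genes most correlated with each of the 2 members of smallest p for wild-type CLP, and others as stated. The 5 pathway lists and 9 marker lists are described by counts and medians.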

Additional observations from a re-analysis of the deposited data

Results flagged for a closer look

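Nfkbia stood out because its septic groups lay on opposite sides of sham in wild-type hearts: all 3 Max Dep arrays were above the sham mean (by 1.60 units on average) and all 3 Min Dep arrays below it (-0.69). The direct difference, Max Dep minus Min Dep, was 2.29 ± 0.45 standardised units (SE) and did not pass over all genes (limma, adjusted p = 0.313). Outliers within a group were not tested, since every group had 3 arrays.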

How the results depend on the processing

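No member passed the adjusted threshold under any alternative, and the lowest adjusted p among them was 0.0979, for 1 Nfkbia probe set in Max Dep against sham. The counts over all genes behind the shares given above were unstable, and the cause was not tested. For wild-type CLP against sham, 89 genes became 513 probe sets with every probe set tested, 0 with eBayes moderation, 179 with the array step undone, 1 with the control covariate, and 0 to 186 when single arrays were left out. For Max Dep against sham, 56 became 220, 0 with moderation, 0 with the covariate, 7 with only the 6 arrays compared, and 0 to 26. For Min Dep against sham, 7 became 112, 0 with moderation, 27 with the step undone, 2 with the covariate, 1 with only the 6 arrays compared, and 0 to 68. For Max Dep against Min Dep, 0 became 2 with the step undone and 0 to 1 without single arrays. For knockout CLP, 0 became 295 with all 6 arrays, among them CLP replicate 1, which may not be an independent array.

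Differences of members changed sign in 28 of 542 recomputed values. With the control covariate these were Myd88 in wild-type CLP (-0.20), Il1rn and Ly96 in Max Dep against sham (0.96 and 1.16), Tnfaip3 in Min Dep against sham (0.0080) and Cd14 in Max Dep against Min Dep (0.024). With the array step undone, Tnfaip3 in Min Dep against sham was 0.11. By single probe set, Il1rn was 0.24 in Max Dep against sham, 0.069 in Max Dep against Min Dep and -0.052 in knockout CLP, and Tlr4 was -0.31 in Max Dep against Min Dep. Leaving out single arrays gave, for wild-type CLP, Myd88 from -0.82 to 1.14 and Il1rn from -0.13 to 0.75. For Max Dep against sham it gave Ly96 from -0.66 to 0.95, Myd88 from -0.40 to 1.56 and Il1rn from -0.62 to 0.50. For Min Dep against sham it gave Myd88 from -1.24 to 0.72 and Tnfaip3 from -0.26 to 0.043. For Max Dep against Min Dep it gave Cd14 from -0.65 to 0.27 and Tnfaip3 from -1.44 to 0.065. For knockout CLP it gave Tlr4 from -0.13 to 2.06 and Nfkbia from -2.51 to 0.54; where 1 CLP array was left, it was assumed to vary like the sham arrays. Nfkbia, Tlr2, Tlr4 and Cd14 kept their sign in the wild-type comparisons with sham under every alternative run. No paired analysis was possible because array codes differ throughout and the labels hold no replicate number shared between groups.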

Other observations

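Cell type markers other than the myeloid ones were measured in the same hearts, and 0 of these genes passed in any comparison. For wild-type CLP against sham, all 8 fibroblast markers (median -1.53), all 7 smooth muscle and pericyte markers (median -1.69) and all 4 adipocyte markers (median -1.28) were lower. Of these, 5, 5 and 2 had an unadjusted p under 0.05 (limma), beside 18.6% of all genes in either direction. Cardiomyocyte markers were lower for 8 of 11 (median -0.19), B cell markers for 3 of 4 (median -0.42), T and NK cell markers for 4 of 8 (median 0.0087) and endothelial markers for 3 of 8 (median 0.84). In knockout hearts 7 of 8 endothelial markers were lower after CLP (median -2.97). Each of them had an unadjusted p under 0.05 (limma), beside 11.9% of all genes in either direction.

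Over the 9 wild-type arrays, which share the same 3 groups, the genes whose values followed Tlr4 most closely were Chtf18 (r = 0.94), Mutyh (r = 0.92) and Haus7 (r = 0.92). For Tlr2 they were Rpgr (r = 0.94), Armt1 (r = 0.94) and Stx1a (r = 0.92). For Nfkbia, a gene chosen for this after its values were seen, they were Khdc4 (r = 0.94), Cct6a (r = 0.93) and Sumf1 (r = 0.93). These are the highest of 12392 correlations each and are given as a description.

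Of the 14 genes with the order seen in Nfkbia, 3 named after their values were seen were Stat3 (Max Dep minus Min Dep 1.57 ± 0.25, adjusted p = 0.258), Smad7 (2.20 ± 0.52, adjusted p = 0.377) and Tpi1 (2.03 ± 0.39, adjusted p = 0.313).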
